A study of Mus musculus with 15 samples.

Results

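Hepatocyte identity transcription factors were taken as 9 genes: Hnf4a, Foxa1, Foxa2, Foxa3, Onecut1, Cebpa, Cebpb, Nr5a2 and Prox1. They were found through the array annotation, as probe sets (groups of short oligonucleotides that read 1 transcript) annotated to 1 of these symbols and to no other. This gave 19 of the 34945 probe sets annotated to 1 symbol. Where a gene had several, the one brightest on average over the 15 arrays was used, which gave 9 of 18193 genes. The rule for the probe sets used no measured difference between groups. Levels were read in whole liver of male mice with an Affymetrix oligonucleotide array (Mouse Genome 430 2.0), and every one of the 15 arrays was given pooled livers, with 3 pools to each of 5 groups. IUGR F1 males (pools 4 to 6) had met a 50% caloric restriction in utero, and ON F1 males (pools 7 to 9) had been overfed during lactation. IUGR F2 (pools 10 to 12) and ON F2 (pools 13 to 15) were adult sons of such males. Control pools (1 to 3) combined males of the first and of the second generation, so that neither generation had a control group of its own. The labels give no strain, and of age they say only that the treated males and the sons were adult. The study asked whether expression patterns of F1 males are seen again in the offspring they fathered.

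These factors form the network that sets and keeps the gene program of the hepatocyte, the main cell of the liver. HNF4A is a nuclear receptor that binds near a large part of the genes of the mature hepatocyte, and the forkhead proteins FOXA1, FOXA2 and FOXA3 are pioneer factors that can bind closed chromatin. ONECUT1 (also called HNF6), C/EBPA, C/EBPB, NR5A2 (also called LRH-1) and PROX1 act on many of the same regulatory regions, and several of them bind each other's promoters. Whole liver also holds bile duct, immune, endothelial and stellate cells, so fewer cells of a type and less RNA per cell cannot be told apart in these pools.

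The promoters of Hnf4a and Foxa3 are shown because these were the members whose levels followed each other most closely over the pools. RefSeq's GRCm38.p6 table held 14 start sites of the 9 members. The 250 bases before each start were searched on both strands for 7 motifs: CAAAGTCCA (HNF4), TGTTTAC (FOXA), TTGCNNAA (C/EBP), ATCAAT (ONECUT1), CAAGGTCA (NR5A2), GTTAAT (HNF1) and TATAAA (the TATA box). Motif letters found are in capitals. Hnf4a has an upstream start (chr2:163506607-163506856, plus strand) and a downstream start (chr2:163546905-163547154, plus strand), and Foxa3 has 1 start (chr7:19023540-19023789, minus strand), each written in the direction of the gene:
Hnf4a upstream start: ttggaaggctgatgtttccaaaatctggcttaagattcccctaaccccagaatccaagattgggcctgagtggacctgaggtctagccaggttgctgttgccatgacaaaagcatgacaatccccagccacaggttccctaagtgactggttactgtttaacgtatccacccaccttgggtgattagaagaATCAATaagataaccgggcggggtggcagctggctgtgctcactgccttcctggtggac
Hnf4a downstream start: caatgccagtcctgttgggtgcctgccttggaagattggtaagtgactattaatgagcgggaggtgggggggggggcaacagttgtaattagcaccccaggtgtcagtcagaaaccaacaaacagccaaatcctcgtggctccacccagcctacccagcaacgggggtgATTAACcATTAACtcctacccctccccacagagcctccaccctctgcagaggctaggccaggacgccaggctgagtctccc
Foxa3: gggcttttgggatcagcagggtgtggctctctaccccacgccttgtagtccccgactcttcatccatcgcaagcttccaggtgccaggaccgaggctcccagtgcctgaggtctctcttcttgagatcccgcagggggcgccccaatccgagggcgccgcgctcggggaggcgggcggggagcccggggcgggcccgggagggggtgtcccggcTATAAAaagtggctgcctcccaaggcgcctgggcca
The upstream Hnf4a window held 1 ATCAAT at position -59 from the start, a motif present in 6.72% of all 32851 windows. The downstream Hnf4a window held GTTAAT at positions -81 and -74, both on the opposite strand (6.43% of windows), and the Foxa3 window held a TATAAA at -36 (12.4% of windows). The motifs did not overlap each other in these windows. The Foxa1 window held 1 TGTTTAC, the FOXA letters, on the opposite strand at -141 (3.17% of windows). Of the other members, Cebpa had a TATAAA at -30, and 1 of 2 Prox1 windows had one at -34 on the opposite strand. Of 3 Foxa2 windows, 1 held GTTAAT (-176) and TATAAA (-208) and 1 held ATCAAT (-213), all on the opposite strand. Of 2 Nr5a2 windows, 1 held a TTGCNNAA on the opposite strand at -243 (9.56% of windows), and the other held GTTAAT at -236 and TATAAA on the opposite strand at -181. No motif was found for Onecut1 or Cebpb.

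The tissue label was checked against markers fixed with the design. The 8 measured hepatocyte markers of 12 listed had a mean log2 level between 13.14 and 13.22 in all 15 pools. Pool 13 of ON F2 stood apart in the 16 measured exocrine pancreas markers, with a mean log2 level of 8.04 against 4.88 to 5.10 in the other 14 pools. Pool 5 of IUGR F1 stood apart in the 9 skeletal muscle markers, with 4.87 against 3.98 to 4.27 in the other 14 pools. The 11 measured cholangiocyte markers averaged 5.08 to 5.19 in ON F1 and 4.80 to 4.92 in control. They averaged 4.96 to 5.02 in IUGR F1, 4.86 to 4.97 in IUGR F2 and 4.82 to 5.01 in ON F2. Kupffer cell and macrophage markers (15 genes) averaged 6.09 to 6.12 in the IUGR F1 pools, 6.31 to 6.53 in ON F1, 6.06 to 6.60 in IUGR F2, 6.39 to 7.05 in ON F2 and 6.39 to 6.86 in control. Dbp, a gene with a strong daily rhythm, had log2 levels above 9 in pools 5, 6, 13, 14 and 2 and below 8 in the other 10. The actin controls, whose log2 ratio of 3' over 5' signal grows as RNA shortens, had their highest ratio in pools 12 (2.28) and 8 (2.22). No array carried values identical to another.

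None of the 9 factors passed the test in any comparison. Differences were tested with limma in 1 fit over all 15 arrays, with Benjamini-Hochberg adjustment over all 18193 genes and a threshold of 0.05 on the adjusted p. The share of all genes called was 0% in IUGR F1 against control, 0.022% in ON F1 against control, 0% in IUGR F2 against control and 0% in ON F2 against control, and 0 members were called in each. It was 0.011% in IUGR F2 against IUGR F1, 1.43% in ON F2 against ON F1, 0.011% in the lineage by generation interaction and 0.187% in the F test over 5 groups, again with 0 members called. At an unadjusted limma p under 0.05, 2 members differed in ON F1 against control (Prox1 and Foxa2) beside 14% of all genes. That count was 1 in IUGR F2 against IUGR F1 (Cebpa, beside 11.4% of all genes), 2 in ON F2 against ON F1 (Foxa2 and Foxa3, beside 19.3%), and 0 against control in the groups IUGR F1 (8.43%), ON F2 (15.1%) and IUGR F2 (7.05%). It was 1 in the interaction (Cebpa, beside 7.71%) and 2 in the F test (Prox1 and Foxa3, beside 18%). Pools that did not overlap between the groups were found for 1 member in IUGR F1 against control (Prox1, beside 14.5% of all genes), 2 in ON F1 (Foxa2 and Prox1, beside 16.4%), 0 in IUGR F2 (13.4%) and 1 in ON F2 (Nr5a2, beside 21%). Such a gap was found for 3 members in IUGR F2 against IUGR F1 (Foxa3, Prox1 and Cebpa, beside 19.2%) and 0 in ON F2 against ON F1 (21.4%). The comparisons against control share the control pools, and nothing is read from their likeness to each other.

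**Figure D1:**
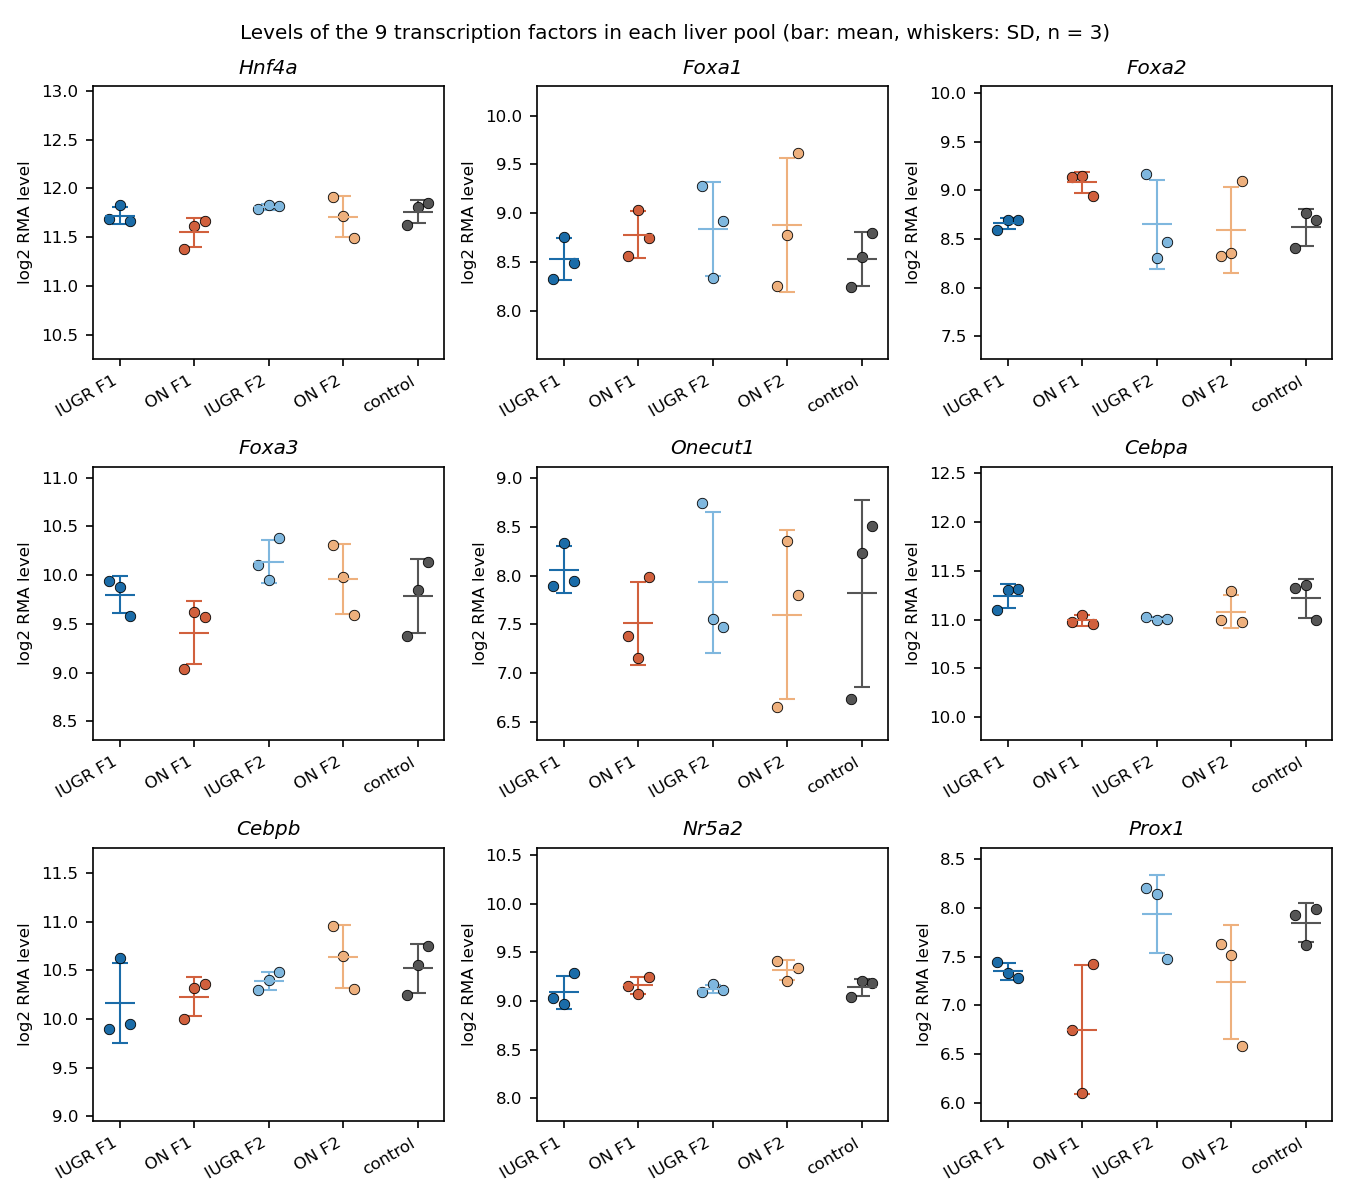
Log2 RMA level (y axis) of each of the 9 factors in the 3 pools of each group (points), with the group mean and SD (bar and whiskers, n = 3). Every panel spans the same number of log2 units around its own centre; Hnf4a, Cebpa and Nr5a2 lie within 0.52 log2 units over all pools, whereas Onecut1 and Prox1 span 2.10 and 2.09.

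At the brightest probe sets, the spread over pools differed widely between members. The range over 15 pools was 0.40 log2 units for Cebpa, 0.44 for Nr5a2 and 0.52 for Hnf4a, near the median range of 0.51 of the 10363 genes with a mean level of at least 5. It was 0.86 for Foxa2, 1.05 for Cebpb, 1.34 for Foxa3, 1.38 for Foxa1, 2.09 for Prox1 and 2.10 for Onecut1. Other probe sets of Hnf4a (1427000_at, 1.27) and Nr5a2 (1420410_at, 1.15) ranged more widely than the brightest ones, and the dim ones of Prox1 less (0.74 and 0.61). The SD within groups of Onecut1 (0.70) was above that of 99.5% of those genes, and those of Prox1 (0.44) and Foxa1 (0.42) were above 97.8% and 97.5%. Foxa3, Foxa2 and Cebpb lay above 94%, 93.7% and 91.9% of the genes, and Hnf4a (0.13), Cebpa (0.13) and Nr5a2 (0.11) above 53.2%, 52.8% and 33.7%. In the order of the 5 group means, 2 of 36 neighbouring pairs of groups over the 9 genes did not overlap in their pools (5.56%), near the share of 4.34% over all genes. They were ON F1 above IUGR F1 for Foxa2, and IUGR F1 below control for Prox1. Whether separate litters went into the pools of a group is not stated, so p-values here cover only how much these pools differ, and pooling hides the spread between single mice.

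Hnf4a stayed within a range of 0.52 log2 units over all pools at its brightest probe set, 1427001_s_at. Its log2 level was 11.69, 11.83 and 11.66 in IUGR F1, 11.38, 11.61 and 11.66 in ON F1, 11.79, 11.83 and 11.82 in IUGR F2, 11.91, 11.72 and 11.49 in ON F2, and 11.62, 11.81 and 11.85 in control. Every group overlapped with control, and the lowest and the highest pool (7 and 13) both belonged to the ON lineage. The difference from control was -0.21 ± 0.11 (standard error) in ON F1 (limma adjusted p = 0.396), and between -0.05 and 0.05 in the other 3 groups. The 95% interval in ON F1, -0.44 to 0.02, includes no change. The other 3 Hnf4a probe sets gave -0.52, -0.56 and -0.03 in ON F1 against control, of which the first 2 were larger than at the brightest probe set and uncalled (limma adjusted p = 0.319 and 0.26). In ON F2 against ON F1 they gave 0.65, 0.40 and -0.05, beside 0.16 at the brightest. The antisense transcript Hnf4aos, which lies across the gene, differed from control by 0.26 in IUGR F1 and 0.00 in ON F1, and in the sons by 0.07 (IUGR F2) and 0.27 (ON F2), each with a standard error of 0.14 and none called.

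In ON F1 against control the estimates of Foxa1 and Foxa2 were positive and that of Foxa3 was negative. None of them was called, and the 3 genes were not tested against each other. Foxa2 had log2 levels in ON F1 of 9.14, 9.15 and 8.94, against 8.41, 8.77 and 8.69 in control. All 3 ON F1 pools were above all 3 control pools. The difference was 0.45 ± 0.21, a 1.37-fold higher level, and was not called (limma adjusted p = 0.353; exact two-sided permutation p = 0.1, the smallest that 3 against 3 pools allow). In ON F2 the Foxa2 level was 8.33, 8.36 and 9.10, and ON F2 minus ON F1 was -0.48 ± 0.21 (limma adjusted p = 0.223). Pool 15 was the high ON F2 pool, and pool 10, at 9.17, the high pool of IUGR F2, whose others stood at 8.31 and 8.47.

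Foxa1 had 8.32, 8.76 and 8.49 in IUGR F1, 8.56, 9.03 and 8.75 in ON F1, 9.28, 8.33 and 8.92 in IUGR F2, 8.25, 8.78 and 9.62 in ON F2, and 8.24, 8.55 and 8.80 in control. Pools 15 and 10 were again the highest of their groups, and for Foxa1 also of all 15 pools. Every group overlapped with control. The widest difference from control was 0.35 ± 0.29 in ON F2 (limma adjusted p = 0.591), and without pool 15 it was -0.02. Foxa3, which also acts in the glucose metabolism of adult liver, had 9.94, 9.88 and 9.58 in IUGR F1 and 9.04, 9.62 and 9.57 in ON F1. In the sons it had 10.10, 9.95 and 10.38 in IUGR F2 and 10.31, 9.98 and 9.59 in ON F2, against 9.38, 9.85 and 10.14 in control. It was -0.38 ± 0.21 in ON F1 and 0.35 ± 0.21 in IUGR F2 against control, neither called (limma adjusted p = 0.44 and 0.782). Single pools moved both: without 1 pool the ON F1 value ranged from -0.59 (without control pool 1) to -0.20 (without pool 7 or control pool 3), and the IUGR F2 value from 0.15 (without control pool 1) to 0.53 (without control pool 3). ON F2 minus ON F1 was 0.55 ± 0.21 (limma adjusted p = 0.177), with pool 15 inside the ON F1 range. At the brightest probe sets this was the largest difference of any member between F2 and F1 of the ON lineage.

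Prox1 showed the largest difference of all members. PROX1 is a homeodomain protein that is needed for the outgrowth of the liver bud, and it can act as a corepressor of HNF4A and NR5A2. Its log2 level in ON F1 was 6.75, 6.10 and 7.42, against 7.93, 7.62 and 7.99 in control, so that all 3 ON F1 pools lay below all 3 control pools. The difference was -1.09 ± 0.30, with a 95% interval of -1.74 to -0.45 and a level 0.469 times that of control. It missed the threshold (limma adjusted p = 0.166; exact two-sided permutation p = 0.1), and its F test over 5 groups had the smallest p of the members (unadjusted 0.00885, limma adjusted 0.159). Without pool 8, the lowest, it was -0.77, and without pool 9 it was -1.42. Pool 8 also had the second-highest actin 3' to 5' ratio, and with that ratio as a covariate the difference was -0.71 (limma adjusted p = 0.423). The part of RNA length in the Prox1 difference was not tested further.

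In IUGR F1, Prox1 had 7.45, 7.33 and 7.28, below all control pools, with a difference of -0.50 ± 0.30 (limma adjusted p = 0.681). In the sons it had 8.20, 8.14 and 7.48 in IUGR F2, overlapping with control (0.09 ± 0.30, limma adjusted p = 0.974), and 7.63, 7.52 and 6.58 in ON F2 (-0.60 ± 0.30, limma adjusted p = 0.356), where pool 13 reached into the control range. Without pool 15, the lowest of the ON F2 pools, that difference was -0.27. IUGR F2 minus IUGR F1 was 0.59 ± 0.30 with no overlap between the groups (limma adjusted p = 0.486), and ON F2 minus ON F1 was 0.49 ± 0.30 (limma adjusted p = 0.394). The last was 0.16 without pool 8 and 0.82 without pool 9 or pool 15. Lymphatic endothelium also needs PROX1, and Prox1 is itself on its marker list. The 5 other measured lymphatic markers had a mean log2 level of 6.06 to 6.08 in IUGR F1, 6.01 to 6.08 in ON F1, 5.80 to 5.87 in IUGR F2, 5.90 to 6.08 in ON F2 and 5.84 to 6.05 in control. Among these, Lyve1 is also on the sinusoidal endothelium list and Reln on the stellate cell list, so the mean is not particular to lymphatic cells.

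Both other Prox1 probe sets were dim. In ON F1 against control they gave -0.48 ± 0.14 (1457432_at, limma adjusted p = 0.17) and -0.37 ± 0.10 (1421336_at, limma adjusted p = 0.166), so all 3 probe sets were lower there and none was called. In ON F2 all 3 were lower again, by different amounts. The probe set 1457432_at had 4.40, 4.39 and 4.39, against 5.05, 5.12 and 5.04 in control, a difference of -0.68 ± 0.14 with the smallest adjusted p of any member probe set in any comparison (limma adjusted p = 0.08). The probe set 1421336_at had -0.14 ± 0.10, beside -0.60 ± 0.30 at the bright one. In IUGR F2 minus IUGR F1 both dim probe sets gave less than the bright one, 0.14 and 0.03. Against control both dim probe sets gave -0.16 in IUGR F2, where the bright one gave 0.09. They gave -0.30 ± 0.14 and -0.19 ± 0.10 in IUGR F1, beside -0.50 at the bright one, and none was called. The antisense transcript Prox1os differed from control by 0.28 ± 0.17 in ON F1 and -0.14 ± 0.17 in ON F2 and was called in no comparison.

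**Figure D2:**
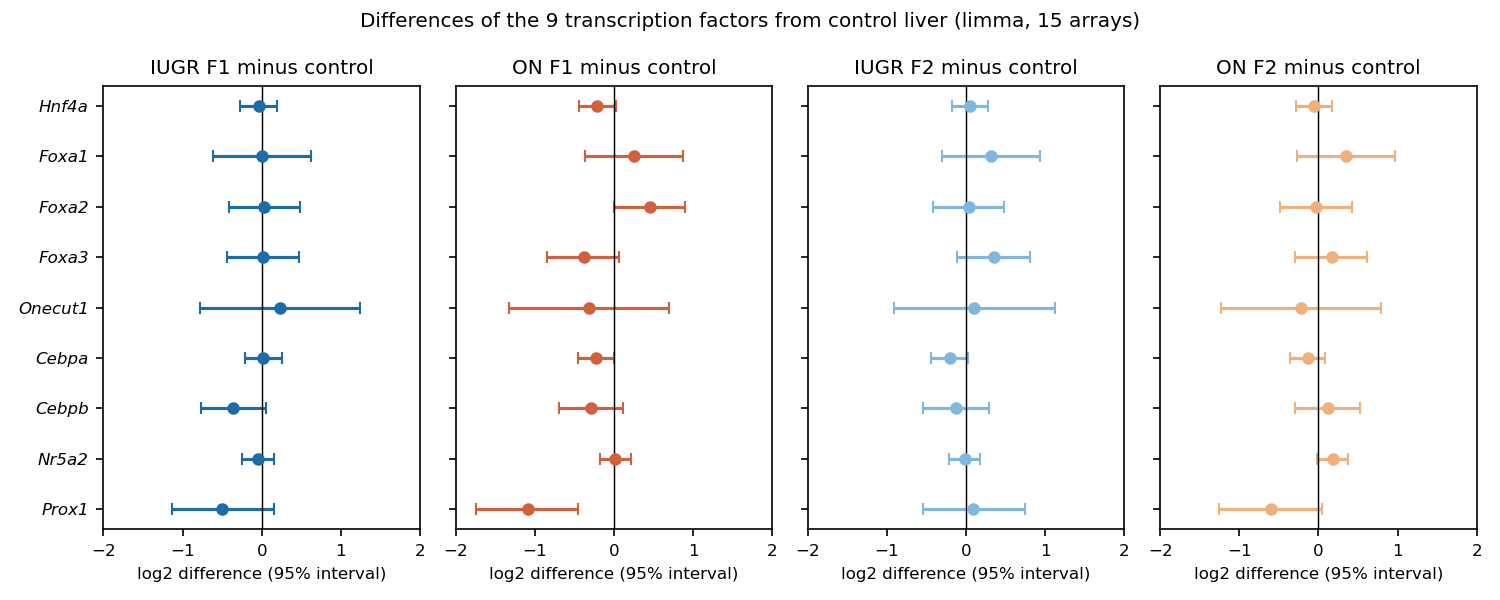
Log2 difference from control (x axis) of each factor in IUGR F1, ON F1, IUGR F2 and ON F2 (panels), with points for the limma estimate and bars for its 95% interval. In ON F1 the Prox1 interval of -1.74 to -0.45 lies clear of 0 before adjustment, and most other intervals cross it; the control pools are shared by all panels.

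**Figure D3:**
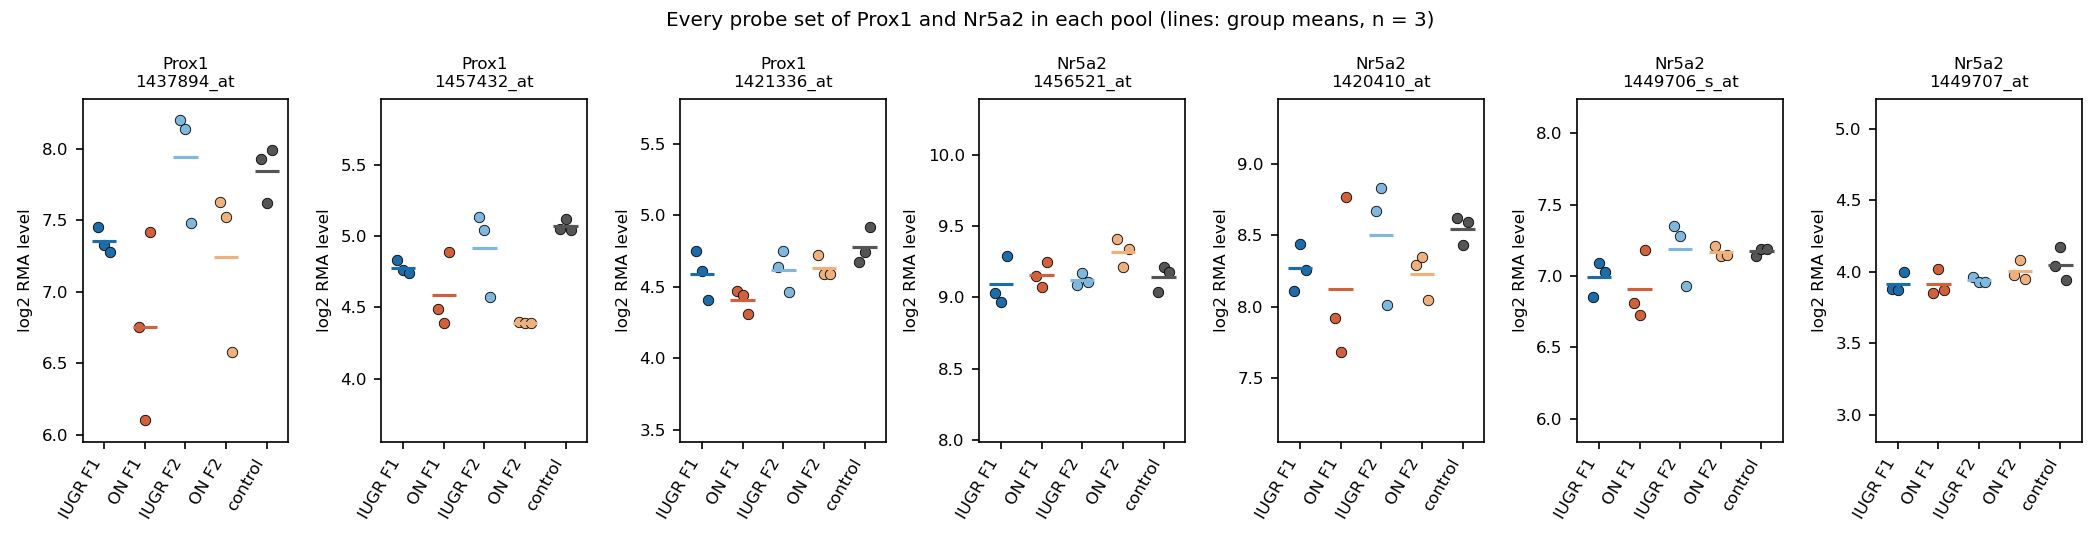
Log2 RMA level (y axis) in each pool (points) for the 3 probe sets of Prox1 and the 4 of Nr5a2, with lines at the group means (n = 3). The Prox1 probe set 1457432_at stands at 4.39 to 4.40 in all ON F2 pools, and the Nr5a2 probe set 1420410_at does not follow 1456521_at.

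Onecut1, a cut homeodomain protein of the hepatocyte and of the bile duct lineage, was the most variable member. It had 7.89, 8.33 and 7.95 in IUGR F1, 7.38, 7.15 and 7.99 in ON F1, 8.75, 7.56 and 7.47 in IUGR F2, 6.65, 8.36 and 7.80 in ON F2, and 6.73, 8.23 and 8.51 in control. The low pools, 13 and 1, sat in different groups, and every group overlapped with control. Differences from control lay between -0.32 and 0.23 with a standard error of 0.47, and limma adjusted p values between 0.81 and 0.983. The 95% interval in ON F1, -1.33 to 0.69, leaves room for a difference of more than 1 log2 unit. The other probe set, 1421447_at, followed the first over the pools (Pearson r = 0.78, n = 15) and was also low in pools 13 (6.03) and 1 (5.84), but differed in sign in ON F1 against control (0.39, against -0.32). Exocrine pancreas markers were high in pool 13 and not in pool 1 (mean log2 level 8.04 and 5.08), and their part in the Onecut1 level was not tested.

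Cebpa, which drives metabolic maturation of hepatocytes, had 11.10, 11.30 and 11.31 in IUGR F1, 10.97, 11.05 and 10.95 in ON F1, 11.03, 10.99 and 11.01 in IUGR F2, 11.00, 11.29 and 10.97 in ON F2, and 11.32, 11.35 and 10.99 in control. Control pool 3 was as low as the ON F1 and IUGR F2 pools, while the other control pools stood higher. The difference from control was -0.23 ± 0.11 in ON F1 and -0.21 ± 0.11 in IUGR F2 (limma adjusted p = 0.356 and 0.731). All IUGR F2 pools were below all IUGR F1 pools, with a difference of -0.23 ± 0.11 (limma adjusted p = 0.435). The interaction, IUGR F2 minus IUGR F1 less ON F2 minus ON F1, was -0.32 ± 0.15 and uncalled (limma adjusted p = 0.645), the only interaction of a member with an unadjusted p under 0.05 (0.0498).

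Cebpb, the C/EBP protein of the acute phase response and of liver regeneration, had 9.90, 10.63 and 9.95 in IUGR F1, 10.00, 10.32 and 10.36 in ON F1, 10.30, 10.40 and 10.48 in IUGR F2, 10.95, 10.65 and 10.31 in ON F2, and 10.25, 10.55 and 10.75 in control. All groups overlapped with control. Cebpb was -0.36 ± 0.19 in IUGR F1 and -0.29 ± 0.19 in ON F1 against control (limma adjusted p = 0.641 and 0.53), and 0.12 ± 0.19 in ON F2. Without 1 pool the IUGR F1 value ranged from -0.59 (without pool 5) to -0.23 (without pool 4), and the ON F1 value from -0.42 (without control pool 1) to -0.17 (without control pool 3). ON F2 minus ON F1 was 0.41 ± 0.19 (limma adjusted p = 0.263), 0.25 without pool 13 and 0.11 with the Dbp level as a covariate. The other Cebpb probe set followed the first closely (Pearson r = 0.97, n = 15) and gave -0.40 in IUGR F1 and -0.42 in ON F1 against control. Cebpb was highest in pools 13 and 3, which also had the highest mean level of the 7 measured neutrophil and myeloid markers (5.50 and 5.38, against 4.48 to 4.81 in the other pools). The part of these cells in the Cebpb level was not tested.

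Nr5a2, a nuclear receptor of bile acid synthesis and cholesterol transport, was steady at its brightest probe set and gave a different picture at its others. At 1456521_at it had 9.03, 8.97 and 9.29 in IUGR F1, 9.15, 9.07 and 9.25 in ON F1, 9.09, 9.17 and 9.11 in IUGR F2, 9.41, 9.21 and 9.34 in ON F2, and 9.04, 9.21 and 9.18 in control. The ON F2 pools lay above the control pools by a margin that rounds away in pools 14 and 2, with a difference of 0.18 ± 0.09 (limma adjusted p = 0.375). Leaving out 1 pool at a time gave 0.12 (without control pool 1) to 0.23, and 0.13 without pool 13, which carried the exocrine pancreas markers. At 1420410_at the same difference was -0.32 ± 0.24, at 1449706_s_at -0.01 and at the dim 1449707_at -0.04, and the mean over the 4 probe sets gave -0.05. The level at 1420410_at did not follow that at 1456521_at over the pools (Pearson r = 0.02, n = 15), so no direction for Nr5a2 as a gene can be given.

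Correlations between members were computed over the 15 pools for all 36 pairs, with 100000 permutations each and Benjamini-Hochberg adjustment over the pairs. The permutations shuffled pools across groups, so their p-values do not set group differences or shared pool makeup apart. No share over all pairs of genes was computed. Hnf4a and Foxa3 were the only pair to pass by Pearson's r (r = 0.88, permutation p = 4e-05, adjusted p = 0.00144; Spearman's rho = 0.81, permutation p = 0.00044, adjusted p = 0.0158). The relation held without the 2 pools farthest from the Hnf4a median (r = 0.82), without any 1 pool (r = 0.80 to 0.90) and on deviations from the group means (r = 0.86). It was weaker at the other Hnf4a probe sets, with r = 0.46, 0.48 and -0.06 to Foxa3, and on deviations from the group means 0.13, 0.32 and 0.05. Pool 7 of ON F1 was lowest in both genes, and pool 13 of ON F2 was highest in Hnf4a and next to highest in Foxa3. Outside the members, Il6ra (r = 0.93) and Prtn3 (r = 0.91) followed Hnf4a more closely than Foxa3 did.

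**Figure D4:**
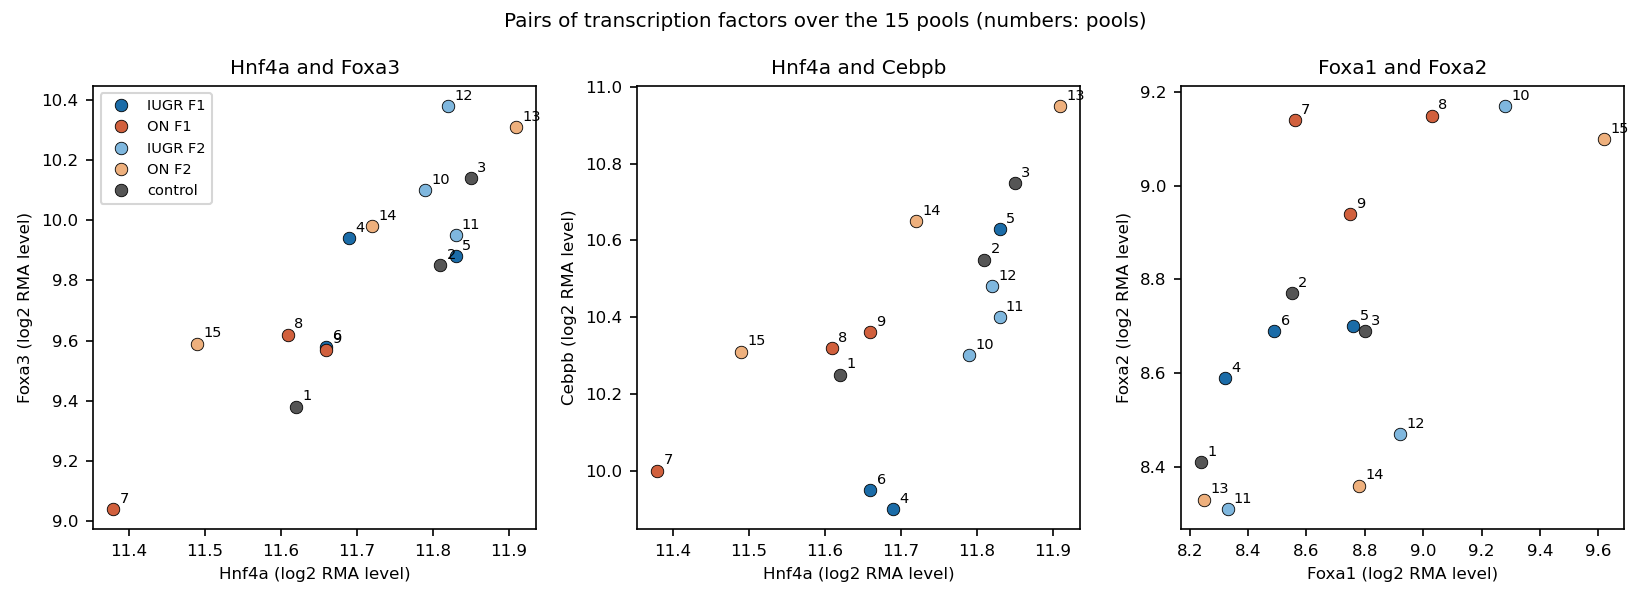
Log2 RMA level in each of the 15 pools (points, coloured by group and numbered by pool) for Hnf4a with Foxa3, Hnf4a with Cebpb, and Foxa1 with Foxa2. Hnf4a and Foxa3 lie along 1 line from pool 7 to pools 12 and 13 (r = 0.88), whereas the other pairs scatter more between groups (r = 0.69 and 0.66).

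Hnf4a with Cebpb had r = 0.69 (permutation p = 0.00478, adjusted p = 0.0669; rho = 0.74, permutation p = 0.00225, adjusted p = 0.0405), and 0.89 on deviations from the group means. Foxa1 with Foxa2 had r = 0.66 (permutation p = 0.00743, adjusted p = 0.0669; rho = 0.62, permutation p = 0.0154, adjusted p = 0.125), and 0.84 on deviations from the group means. It was 0.49 without the 2 farthest pools. Hnf4a with Prox1 had r = 0.67 (permutation p = 0.00719, adjusted p = 0.0669; rho = 0.67, permutation p = 0.00838, adjusted p = 0.101), 0.50 without the 2 farthest pools and 0.42 on deviations from the group means. The most negative pair was Hnf4a with Foxa2 (r = -0.58, permutation p = 0.0235, adjusted p = 0.141; rho = -0.52, permutation p = 0.0518, adjusted p = 0.266). Over all 36 pairs, 22 values of r were positive and 14 negative, with a median of 0.05, so the 9 factors did not vary as 1 unit from pool to pool. All points of a pair share their arrays, and therefore the RNA quality and cell makeup of the pool.

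Among the 10362 other genes with a mean level of at least 5, the pattern most like that of Hnf4a was that of Il6ra, the alpha chain of the interleukin-6 receptor (r = 0.93 over 15 pools), followed by Prtn3, known as a neutrophil protease (r = 0.91). Prtn3 had 9.79, 7.64 and 5.84 in ON F2 and 4.51, 6.38 and 6.95 in ON F1, against 6.61, 8.06 and 8.81 in control. For Foxa3 the most alike genes were R3hdm1 and again Il6ra (r = 0.89 each), and for Cebpb the acute phase gene Orm3 (r = 0.92) and Pros1, the gene of the anticoagulant protein S (r = 0.91). Il6ra had 9.00, 8.19 and 7.51 in ON F2 and 6.94, 7.37 and 7.93 in ON F1, against 8.06, 8.32 and 8.55 in control, with its ends in the same pools 13 and 7 as Hnf4a. Prox1 was followed by Ubl3 (r = 0.92) and Zmym5 (r = 0.91), and Nr5a2 by Epc2 (r = 0.86) and Rdx (r = 0.85). For Foxa1 they were Phlda1 (r = 0.85) and Ikzf4 (r = 0.83), for Foxa2 Zfp157 (r = 0.84) and B230307C23Rik (r = 0.81), for Onecut1 Pex26 (r = 0.75) and Mier3 (r = 0.73), and for Cebpa Reln (r = 0.78) and 1810064F22Rik (r = 0.77). These are the extremes of many comparisons and are given as a description.

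Genes around the network were read from 6 lists. Of 31 measured other liver-enriched transcription factors, 0 were called by limma in the 6 comparisons of 2 groups. In ON F2 against ON F1, 7 of them had an unadjusted p under 0.05, beside 19.3% of all genes. The members with the smallest F test p were Zbtb20, a zinc finger repressor of alpha-fetoprotein (unadjusted p = 0.0174), and Nr1i2, the xenobiotic receptor PXR (unadjusted p = 0.0436). Nr1i2 was -0.34 ± 0.13 in IUGR F2 and -0.29 ± 0.13 in ON F2 against control, both uncalled (limma adjusted p = 0.683 and 0.328).

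The calls in these lists came in ON F2 against ON F1, where 1.43% of all genes were called. Of 18 measured coactivators, corepressors and partners, 0 rose and 1 fell there. Nrip1, a corepressor of nuclear receptors, had 7.46, 7.38 and 7.77 in ON F2, against 8.51, 7.92 and 8.00 in ON F1 (-0.61 ± 0.14, limma adjusted p = 0.0497). Of 36 measured plasma protein and hepatocyte enzyme genes, 1 rose and 0 fell. Pck1, the gluconeogenic enzyme phosphoenolpyruvate carboxykinase, had 12.08, 11.63 and 10.66 in ON F2, against 9.17, 9.88 and 10.39 in ON F1 (1.64 ± 0.38, limma adjusted p = 0.047). Of 13 measured NR5A2 targets, 1 rose and 0 fell. Abcg8, a sterol exporter to bile, had 8.12, 8.29 and 8.07 in ON F2, against 7.57, 7.55 and 7.65 in ON F1 (0.57 ± 0.13, limma adjusted p = 0.0447). Of 12 measured fetal liver genes, 0 rose and 1 fell. Sox9, a marker of bile duct and progenitor cells, had 6.26, 6.15 and 6.35 in ON F2, against 7.04, 6.97 and 7.21 in ON F1 (-0.83 ± 0.17, limma adjusted p = 0.0315). In control, Nrip1 had 7.85, 7.77 and 7.96, and Pck1 had 10.92, 11.11 and 11.67. Abcg8 had 7.67, 8.06 and 7.59 there, and Sox9 had 6.97, 6.19 and 6.57. None of these genes was called against control in ON F1 or ON F2.

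These 4 genes were picked by their call in this comparison, so a gap between their pools adds no support. The ON F2 and ON F1 pools did not overlap in any of them, as in 21.4% of all genes. The calls of the 4 genes lie close to the threshold. Of 24 alternatives, Sox9 was called in 16, Abcg8 in 9, Nrip1 in 7 and Pck1 in 6, and each kept its sign in all 24. With the Dbp level as a covariate none of them was called, and the differences were smaller: -0.49 for Sox9 (limma adjusted p = 0.256), 0.35 for Abcg8 (0.385), -0.39 for Nrip1 (0.398) and 1.12 for Pck1 (0.389). Cholangiocyte markers (11 genes, Sox9 among them) averaged 4.82 to 5.01 in ON F2, 5.08 to 5.19 in ON F1 and 4.80 to 4.92 in control. Their part in the Sox9 difference was not tested.

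The 16 measured acute phase targets of C/EBPB held no call in any comparison. All 16 were on the negative side in IUGR F1 and in ON F1 against control, with median differences of -0.36 and -0.33. Over all genes the medians were 0.01 and 0.02, and 52.3% and 55% of genes were positive. The 16 genes were read on the same pools and both comparisons share the control pools, so these signs are not separate observations. Of the 15 Kupffer cell and macrophage markers, 14 were negative in IUGR F1 (median -0.50) and 10 in ON F1 (median -0.12). In the sons 12 of these markers were negative in IUGR F2 (median -0.24) and 3 in ON F2 (median 0.21). Their part in the acute phase values was not tested. In the sons 5 of the acute phase targets were positive and 11 negative in IUGR F2 and 7 and 9 in ON F2, with medians of -0.04 and -0.03. Il6ra was -0.90 ± 0.30 in ON F1 (limma adjusted p = 0.221), and Apcs, serum amyloid P component, -0.60 ± 0.23 in IUGR F1 (limma adjusted p = 0.502). Cebpb itself was -0.36 and -0.29 in the same comparisons, as given above, also uncalled.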

How the data were processed

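Liver RNA of 15 pools, 3 in each of 5 groups, was read on Affymetrix Mouse Genome 430 2.0 arrays. The deposited values are log2 levels per probe set, made by the authors with RMA per the submitters' processing notes. That method subtracts background, sets all arrays to 1 distribution and joins a set's probes into 1 value. For RMA no version is given in the sources used here. Array medians of 4.60 to 4.68 show the log2 scale. A shift common to most genes would be lost in this step, and differences of dim probe sets are understated.

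Of 45101 probe sets, 64 controls, 932 with several symbols and 9160 with none were left out. Each gene was read at its brightest probe set, and no dim genes were removed. Groups came from the titles and treatment labels. Differences were tested with limma 3.58.1 in R 4.3.3 (5 group means, 10 residual and 4.69 prior degrees of freedom, two-sided), and the fit was tested on simulated data. The median standard error of a difference from control was 0.104, and the number of arrays limits the precision. Correlations were computed in Python 3.11.15 with scipy 1.17.1. Promoter windows came from RefSeq (GRCm38.p6).

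The members and lists were chosen with earlier results of these data known. Named were all members, list genes called in any comparison of 2 groups (at most 4 per list, otherwise the 2 with the smallest F test p), and the 2 genes most correlated with each member.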

Additional observations from a re-analysis of the deposited data

How the results depend on the processing

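No paired analysis was possible because the pool numbers 1 to 15 are each used once and tie no pool to another. The 54 differences of members were recomputed under 1356 alternative values, and 0 passed the threshold. The sign changed in 97 of these, of which 7 had a difference larger than its standard error in the main analysis: Foxa1 in ON F2 against control without pool 15, Nr5a2 in ON F2 against control at the mean of its probe sets and at its 3 other probe sets, Hnf4a (1450447_at) and Prox1 (1457432_at) in ON F2 against ON F1. Values moved by more than 1 SD in 34 cases, all but 1 at another probe set or the mean of probe sets; the other was Cebpb in ON F2 against ON F1 with the Dbp covariate. The correlation of Hnf4a and Foxa3 was -0.06 at the Hnf4a probe set 1450447_at. Alternatives for the correlations and for Nrip1, Pck1, Abcg8 and Sox9, and the lymphatic list without Prox1, were chosen after seeing the data.

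The count of members called was 0 in all 191 recounts, which with so few genes called in all says little about stability. With array weights the counts of all genes called were 2 in IUGR F1 against control, 2 in ON F1 against control, 15 in IUGR F2 against IUGR F1, 101 in ON F2 against ON F1 and 53 in the F test. With the mean of probe sets they were 1 in IUGR F1 against control, 1 in ON F1 against control and 1 in the interaction. With the Dbp covariate they were 1 in ON F1 against control, 3 in ON F2 against ON F1 (261 without it), 1 in the interaction and 8 in the F test. With the actin covariate they were 0 in ON F1 against control and 0 in IUGR F2 against IUGR F1. With only the compared groups they were 0 in ON F1 against control, 1 in IUGR F2 against IUGR F1 and 7 in ON F2 against ON F1. Genes with a mean of at least 5 gave 1 in ON F1 against control and 5 in IUGR F2 against IUGR F1, robust moderation gave 4 in the last, and centring on the median gave 52 in the F test (34 without it). Leaving out 1 pool at a time gave 0 to 0 calls in IUGR F1, 0 to 21 in ON F1, 0 to 1 in IUGR F2 and 0 to 1 in ON F2 against control. It gave 0 to 4 in IUGR F2 against IUGR F1, 19 to 313 in ON F2 against ON F1, 2 to 4 in the interaction and 7 to 40 in the F test. The cause of these moves was not tested.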
